A study of Homo sapiens with 12 samples.

Results

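Adrenomedullin, apelin and endothelin are peptides that endothelial cells release and that set the tone and permeability of blood vessels. The 8 genes described here are the peptide genes ADM, APLN and EDN1, the receptor gene CALCRL, its partner genes RAMP1, RAMP2 and RAMP3, and ECE1, which encodes the enzyme that makes active endothelin. They were taken by name, as 8 of the 18417 genes that had a probe set assigned to a single symbol, and each was measured by 1 probe set.

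Adrenomedullin acts on CALCRL, a receptor of the calcitonin family that needs a receptor activity-modifying protein (RAMP) at the cell surface: with RAMP2 or RAMP3 it binds adrenomedullin, and with RAMP1 it binds calcitonin gene-related peptide. Apelin acts on the receptor APLNR and, like adrenomedullin, generally widens vessels. EDN1 encodes the precursor of the vasoconstrictor endothelin, which furin-type proteases and then endothelin-converting enzyme cut to its active form.

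The cells were EA.hy 926, a hybrid of human umbilical vein endothelium and the A549 lung carcinoma line, so it is 1 line that carries genes of both parents. Hi cells were kept in Medium 199 with 9 uM (4 mg/L) folic acid, the usual level for the line, and Lo cells were a separately adapted culture in Medium 199 with 23 nM, both with 10% fetal calf serum. Confluent cells received fresh medium and 24 h later either no drug or 0.5 uM pemetrexed (PMX), an antifolate that blocks thymidylate synthase and other folate enzymes, for 48 h. Total RNA of 3 biological replicates in each of the 4 groups (Hi control, Hi pemetrexed, Lo control, Lo pemetrexed) was measured on 12 Affymetrix arrays. Levels are log2 expression values, on which a step of 1 is a 2-fold difference, and levels of different genes cannot be compared because probe sets differ in brightness. The arrays hold no read depth, so their number limits the precision.

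Array medians lay between 7.24 and 7.33. The arrays labelled Hi control 3 and Lo control 3 stood apart from their groups. Over all genes, Hi control 3 correlated at 0.9966 on average with the other Lo controls and at 0.9904 with the other Hi controls, while Lo control 3 correlated at 0.9974 with the other Hi controls and at 0.9922 with the other Lo controls. Whether these labels are right was not tested, and every 12-array comparison with controls rests on them. Labels were kept, and results are given on all 12 arrays and on the 10 arrays without these. The 2 arrays were left out for their likeness to the other folate group. This choice favours a larger difference between the control groups and smaller errors on 10 arrays. As a check of the cell type, 13 endothelial markers averaged 11.07 to 11.27 on the Hi pemetrexed arrays and 10.12 to 10.27 on the Lo pemetrexed arrays. They averaged 10.53 to 11.29 in Hi controls and 10.52 to 11.11 in Lo controls. The lowest Hi control value, 10.53, was that of Hi control 3, and the highest Lo control value, 11.11, that of Lo control 3. In bulk RNA, fewer cells that make a transcript and less transcript per cell cannot be told apart.

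**Figure D1:**
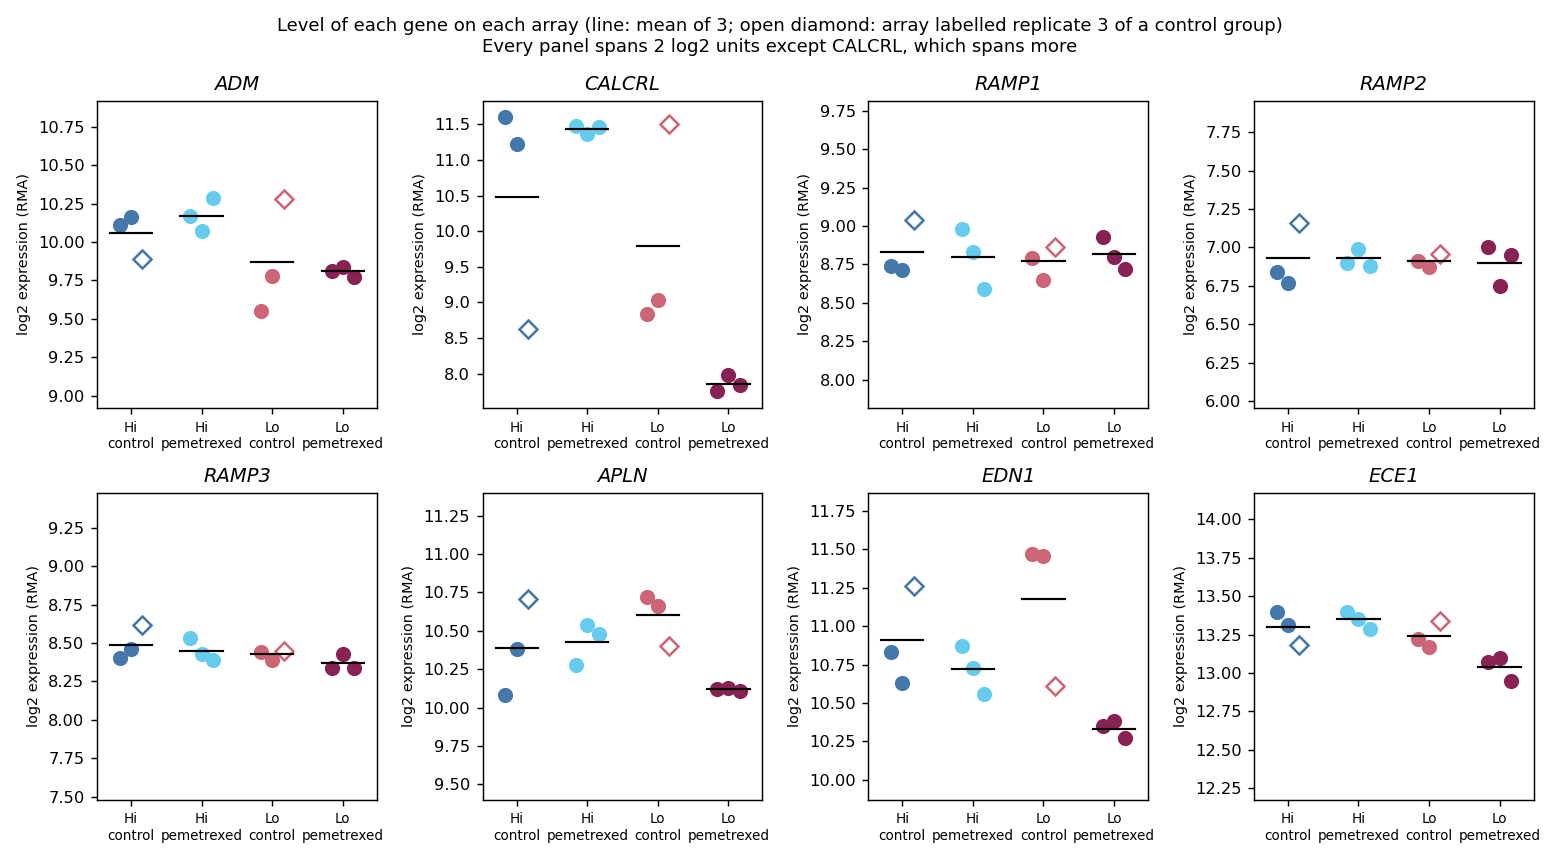
Each panel shows 1 gene, with the log2 expression value of every array on the y axis and the 4 groups on the x axis; lines are means of 3 arrays and open diamonds are the arrays labelled Hi control 3 and Lo control 3. CALCRL ran from 7.75 to 11.60, and its 3 Lo pemetrexed arrays lay below all others.

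The receptor gene CALCRL (probe set 8057578; chromosome 2, 187341964 to 187448252, GRCh38.p14) varied more than any other of the 8. It stood at 11.60, 11.22 and 8.62 on the Hi control arrays, at 11.48, 11.36 and 11.47 on the Hi pemetrexed arrays, at 8.84, 9.03 and 11.51 on the Lo control arrays and at 7.75, 7.98 and 7.84 on the Lo pemetrexed arrays. Both arrays that stood apart carried a level of the opposite folate group: Hi control 3 was -2.79 from the mean of the other Hi controls and -0.31 from that of the other Lo controls, and Lo control 3 was 2.58 above the other Lo controls and 0.10 above the other Hi controls. The treated groups, which hold neither of these arrays, were far apart and did not overlap.

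Among treated cells, CALCRL fell by 3.58 ± 0.72 (SE) on the log2 scale in low folate, an 11.98-fold lower level (limma, adjusted p = 0.00381). This was the lowest change of all 18417 genes in that comparison, and the call was kept in all 12 fits that left out 1 array each. On 10 arrays the change was the same with a smaller error of 0.10 (limma, adjusted p = 7.03e-10), because the spread is pooled over the groups.

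In Lo cells given pemetrexed, CALCRL differed from Lo controls by -1.94 ± 0.72 and was not called (limma, adjusted p = 0.116). The Lo pemetrexed arrays all lay below the Lo control arrays. Without Hi control 3 alone, the call was made at the same change of -1.94 (limma, adjusted p = 0.0245), and on 10 arrays CALCRL fell by 1.08 ± 0.11 (limma, adjusted p = 9.28e-05). Pemetrexed in Hi cells gave 0.95 ± 0.72 on 12 arrays and 0.03 ± 0.11 on 10, neither of them called (limma, adjusted p of 1.00 in both).

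The endothelial marker list moved with CALCRL. In treated cells 11 of its 13 genes fell in low folate on 12 and on 10 arrays, with a median of -0.86 against 0.01 for all genes tested, of which 22.3% were called on 12 arrays and 27.7% on 10. In Lo cells given pemetrexed 5 of the 13 fell on 12 arrays and 7 on 10, where 10.7% and 11% of all genes were called. The part of a general shift in endothelial genes in the CALCRL change was not tested. The 4 leukocyte markers had no call in any of the 5 comparisons. At unadjusted p under 0.05 in limma there were 0 of 4 in treated cells on 12 arrays and 1 of 4 on 10. With pemetrexed in Lo cells there was 1 of 4 on 12 and on 10 arrays. Of 10 smooth muscle and fibroblast markers, ACTA2 and CNN1 rose in low folate in treated cells on 12 and on 10 arrays. Of 8 epithelial and lung carcinoma markers, 2 rose and 1 fell there on 12 arrays, and 4 rose and 1 fell on 10. AKR1B10, an enzyme high in many lung carcinomas, differed most of these, by 2.82 on the log2 scale, while CDH1, KRT18 and KRT19 gave 0.15, 0.01 and 0.02 and were not called on 12 or 10 arrays. On 12 arrays EPCAM rose by 0.38 and AKR1C1, another enzyme of the list, gave -0.38 (limma, adjusted p = 0.0370 and 0.0474). KRT7 and KRT8 gave 0.33 and 0.23 and were not called on 12 arrays.

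The RAMP partner genes showed no such pattern. RAMP1 (probe set 8049567; chromosome 2, 237858880 to 237912106), the partner for calcitonin gene-related peptide, lay between 8.59 and 9.04 on all 12 arrays. RAMP2 (probe set 8007348; chromosome 17, 42761227 to 42763041), the main adrenomedullin partner, lay between 6.75 and 7.16, and RAMP3 (probe set 8132660; chromosome 7, 45157791 to 45184250) between 8.34 and 8.62. The highest RAMP1, RAMP2 and RAMP3 value was on the array labelled Hi control 3 in each case.

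None of the 3 was called in any of the 5 comparisons by limma on 12 or 10 arrays, and none had an unadjusted p under 0.05 there. In treated cells low folate gave 0.01 for RAMP1, -0.03 for RAMP2 and -0.08 for RAMP3. The 95% intervals of these differences reached from -0.23 to 0.26 for RAMP1, from -0.24 to 0.19 for RAMP2 and from -0.24 to 0.08 for RAMP3, and the CALCRL change lies far outside each of them. RAMP2 averaged 6.92 over the 12 arrays, below every array median (7.24 to 7.33). A small change in so dim a gene may be hard to see here, and its interval does not cover that limit. Dimness did not prevent every call: PDE5A and BDKRB1, described below, each averaged 6.84 and were called.

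The peptide gene ADM (probe set 7938390; chromosome 11, 10305073 to 10307397) encodes the ligand of CALCRL with RAMP2 or RAMP3 and is a well known hypoxia-inducible gene. It stood at 10.11, 10.16 and 9.89 in Hi controls, at 10.17, 10.07 and 10.29 in Hi pemetrexed cells, at 9.55, 9.78 and 10.28 in Lo controls and at 9.81, 9.84 and 9.77 in Lo pemetrexed cells. Treated Hi and Lo arrays did not overlap, with the Lo arrays lower.

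That difference was -0.37 ± 0.15 and was not called on 12 arrays (limma, adjusted p = 0.0986). Without Lo control 3 it was called (limma, adjusted p = 0.0131), and on 10 arrays ADM fell by 0.37 ± 0.08 (limma, adjusted p = 0.00432). In control cells on 10 arrays ADM also fell in low folate, by 0.48 ± 0.10 (limma, adjusted p = 0.0111). Pemetrexed gave -0.06 ± 0.15 in Lo cells on 12 arrays and 0.15 ± 0.09 on 10, neither called (limma, adjusted p = 0.871 and 0.388).

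EDN1 (probe set 8116921; chromosome 6, 12230516 to 12297194) encodes the endothelin precursor. It stood at 10.83, 10.63 and 11.26 in Hi controls, at 10.87, 10.73 and 10.56 in Hi pemetrexed cells, at 11.47, 11.46 and 10.61 in Lo controls and at 10.35, 10.38 and 10.27 in Lo pemetrexed cells. The 3 Lo pemetrexed arrays were the lowest of the 12, and the Lo controls 1 and 2 were the highest.

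In Lo cells given pemetrexed EDN1 fell by 0.85 ± 0.21, 1.81-fold (limma, adjusted p = 0.0197). On 10 arrays the fall was 1.14 ± 0.10, 2.20-fold (limma, adjusted p = 2.78e-05). The 12-array call was lost in 5 of the 12 fits that left out 1 array, namely without Lo control 1, Lo control 2 or any of the 3 Lo pemetrexed arrays, with an adjusted p up to 0.0783 (limma) and changes from -1.14 to -0.71 over the 12 fits. Pemetrexed in Hi cells gave -0.19 ± 0.21 on 12 arrays and -0.01 ± 0.10 on 10, neither called by limma (adjusted p of 1.00 in both).

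APLN (probe set 8175016; chromosome X, 129645259 to 129654956) encodes apelin. It stood at 10.08, 10.38 and 10.71 in Hi controls, at 10.28, 10.54 and 10.48 in Hi pemetrexed cells, at 10.72, 10.66 and 10.40 in Lo controls and at 10.12, 10.13 and 10.11 in Lo pemetrexed cells. Lo pemetrexed arrays lay below every Lo control array.

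APLN fell by 0.48 ± 0.14, 1.39-fold, with pemetrexed in Lo cells (limma, adjusted p = 0.0429), and by 0.57 ± 0.10 on 10 arrays (limma, adjusted p = 0.00292). The 12-array call was close to its threshold and was lost in 8 of the 12 fits that left out 1 array, without Hi control 2, Hi pemetrexed 2 or 3, Lo control 1 or 2, or any Lo pemetrexed array, with an adjusted p up to 0.129 (limma). Its change over those fits lay between -0.57 and -0.41. Pemetrexed in Hi cells gave 0.04 ± 0.14 on 12 arrays and 0.21 ± 0.10 on 10, neither called by limma (adjusted p of 1.00 in both).

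ECE1 (probe set 7913357; chromosome 1, 21217250 to 21345504), the endothelin-converting enzyme, stood at 13.40, 13.31 and 13.18 in Hi controls, at 13.40, 13.35 and 13.29 in Hi pemetrexed cells, at 13.22, 13.17 and 13.34 in Lo controls and at 13.07, 13.10 and 12.95 in Lo pemetrexed cells. Lo pemetrexed arrays lay below all others. In treated cells low folate gave a fall of 0.31 ± 0.08, 1.24-fold (limma, adjusted p = 0.0142), which lost its call without Lo pemetrexed 3 (-0.26; limma, adjusted p = 0.0641). With pemetrexed in Lo cells the difference was -0.20 ± 0.08 (limma, adjusted p = 0.135) and on 10 arrays -0.15 ± 0.08 (limma, adjusted p = 0.275).

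Over the 8 genes, pemetrexed in Lo cells gave 2 calls on 12 arrays, EDN1 and APLN, both lower, against 10.7% of all genes called (5.14% lower). The 8 genes had a median of -0.13 against 0.02 for all genes, and 4 of the 8 did not overlap between the groups, against 29.8% of all genes. On 10 arrays the calls were EDN1, APLN and CALCRL, against 11% of all genes. Pemetrexed in Hi cells gave 0 calls among the 8 on 12 and on 10 arrays, where limma called 0% of all genes; at unadjusted p under 0.05 there were also 0 of the 8, against 1.44% and 1.82% of all genes. Low folate in control cells gave 0 calls on 12 arrays by limma, with 0 of the 8 at unadjusted p under 0.05 against 2.1% of all genes and 0% of all genes called, and 4 on 10 arrays, against 7.17% of all genes.

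On those 10 arrays, control cells in low folate had CALCRL lower by -2.48 ± 0.12 (5.56-fold; limma, adjusted p = 1.09e-06), which was the lowest change of all 18417 genes. In the same comparison 6 of the 13 endothelial markers fell, with a median of -0.30 against -0.01 for all genes, and 3 of the 8 epithelial markers rose (AKR1B10 by 2.00, KRT7 by 0.53 and KRT8 by 0.44); their part in the result was not tested. EDN1 rose by 0.74 ± 0.11 (limma, adjusted p = 0.00127) and APLN by 0.46 ± 0.11 (limma, adjusted p = 0.0232). On these 10 arrays EDN1 and APLN were higher in Lo than in Hi controls and lower after pemetrexed in Lo cells. These comparisons share the Lo control arrays, so their opposite signs are not independent. The choice of arrays itself favours a control difference: for EDN1 the arrays left out were Hi control 3 at 11.26 and Lo control 3 at 10.61. Each control group then holds 2 arrays. On 12 arrays the control values were -0.69 ± 0.72 for CALCRL, 0.27 ± 0.21 for EDN1 and 0.21 ± 0.14 for APLN, none of them called (limma, adjusted p of 1.00 in each).

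Among treated cells, CALCRL and ECE1 made the 2 calls on 12 arrays, against 22.3% of all genes, and 5 of the 8 did not overlap, against 37.3%. The median of the 8 was -0.31 against 0.01. On 10 arrays ADM, APLN and EDN1 were called as well, against 27.7% of all genes: APLN fell by 0.31 ± 0.09 (limma, adjusted p = 0.0196) and EDN1 by 0.39 ± 0.09 (limma, adjusted p = 0.00482). On 12 arrays APLN had an adjusted p of 0.130 and EDN1 of 0.221 in limma, and APLN was called without Hi control 3 (limma, adjusted p = 0.0442).

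Whether Lo and Hi cells responded unequally to pemetrexed was tested with the interaction term (the change in Lo cells minus the change in Hi cells). On 12 arrays limma called 0 of the 8, against 4.81% of all genes, and 4 of the 8 had an unadjusted p under 0.05, against 19.2% of all genes. On 10 arrays it called 3, against 4.16% of all genes: CALCRL with -1.11 ± 0.16 (limma, adjusted p = 0.00252), EDN1 with -1.13 ± 0.14 (limma, adjusted p = 0.000924) and APLN with -0.78 ± 0.14 (limma, adjusted p = 0.00902). On 12 arrays these were -2.90 ± 1.02, -0.67 ± 0.29 and -0.52 ± 0.19. APLN was called without Hi control 3 (-0.68; limma, adjusted p = 0.0347), and EDN1 without Lo control 3 (-0.95; limma, adjusted p = 0.0250).

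**Figure D2:**
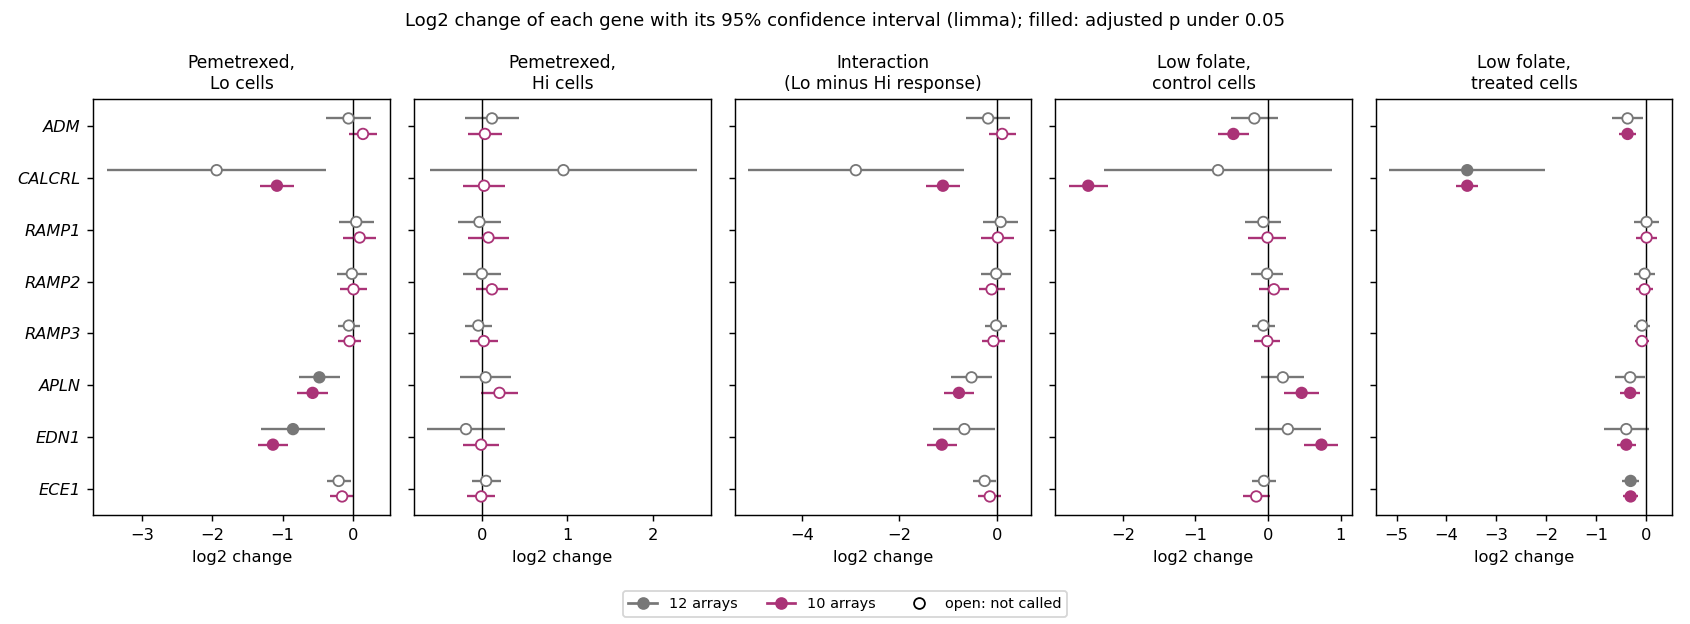
Log2 changes of the 8 genes in the 5 comparisons with their 95% confidence intervals (x axis), on 12 arrays (grey) and on 10 (purple); filled circles had an adjusted p under 0.05 in limma. EDN1 and APLN are filled in Lo cells on 12 arrays, and the low folate change of CALCRL in treated cells, -3.58, is filled on both.

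The windows at the starts of 4 of these genes are shown because EDN1 and APLN fell together in Lo cells given pemetrexed and ADM and CALCRL encode a ligand and its receptor. They are RefSeq sequence of GRCh38.p14, reaching from 250 bases before to 50 bases after an annotated start; 6 of the 8 genes had at least 1 such window, 11 in all. Letters in capitals match a searched motif and nothing else is marked. On both strands, the HIF core in its form ACGTG, the GATA motif AGATAA, the AP-1 motif TGANTCA, its variant TGACTAA and the TATA box TATAAA were sought. The form GCGTG of the HIF core was not sought in any window and is not marked.
EDN1, chr6:12290111-12290410, plus strand: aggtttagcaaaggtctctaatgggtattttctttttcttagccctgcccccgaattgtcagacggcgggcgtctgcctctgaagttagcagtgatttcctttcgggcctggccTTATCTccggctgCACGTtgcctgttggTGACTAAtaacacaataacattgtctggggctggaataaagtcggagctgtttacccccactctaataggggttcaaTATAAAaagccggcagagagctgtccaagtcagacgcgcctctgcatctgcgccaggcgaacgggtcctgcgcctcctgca
ADM, chr11:10304823-10305122, plus strand: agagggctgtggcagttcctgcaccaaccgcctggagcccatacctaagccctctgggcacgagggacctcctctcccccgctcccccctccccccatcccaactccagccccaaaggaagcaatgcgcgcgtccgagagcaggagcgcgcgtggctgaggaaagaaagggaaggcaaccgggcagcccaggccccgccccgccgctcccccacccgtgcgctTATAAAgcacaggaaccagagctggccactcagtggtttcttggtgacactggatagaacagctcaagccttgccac
APLN, chrX:129654907-129655206, minus strand: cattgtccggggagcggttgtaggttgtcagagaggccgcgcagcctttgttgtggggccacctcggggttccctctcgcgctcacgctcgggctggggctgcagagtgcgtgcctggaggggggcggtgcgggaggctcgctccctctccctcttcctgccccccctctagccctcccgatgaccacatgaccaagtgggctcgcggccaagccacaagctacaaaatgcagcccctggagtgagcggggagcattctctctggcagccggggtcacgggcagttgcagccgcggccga
CALCRL, chr2:187448203-187448502, minus strand: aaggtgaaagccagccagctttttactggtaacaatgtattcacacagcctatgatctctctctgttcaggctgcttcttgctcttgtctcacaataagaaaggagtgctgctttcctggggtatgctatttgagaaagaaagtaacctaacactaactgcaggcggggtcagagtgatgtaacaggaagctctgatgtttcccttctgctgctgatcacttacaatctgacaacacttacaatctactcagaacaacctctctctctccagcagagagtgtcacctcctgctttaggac

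EDN1 had 3 windows, and the one printed held the most matches. It held 4 that do not overlap one another: TTATCT, the reverse complement of the GATA motif, at -136, CACGT, the reverse complement of the HIF core, at -123, TGACTAA at -108 and TATAAA at -31. Of 35116 windows of that length in the table, 10.3% held the GATA motif, 21.4% the HIF core, 1.9% the AP-1 variant, 7.71% the other AP-1 motif and 11.5% the TATA box. Of the other EDN1 windows, chr6:12287769-12288068 held CACGT at -240 and -93 and no other searched motif, and chr6:12289764-12290063 held none of the searched motifs. The ADM window held TATAAA at -27. None of the searched motifs was found in the APLN and CALCRL windows, which says only that these letters are not there. The letters GCGTG, which were not sought, stand in the printed ADM and APLN windows.

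Of the related lists, the calcitonin family had 8 measured genes and 1 call among them in Lo cells given pemetrexed, against 10.7% of all genes. PAM, which amidates adrenomedullin and other peptides, fell by 0.52 ± 0.14 (limma, adjusted p = 0.0281), a call lost without Lo control 2 or 3 or any Lo pemetrexed array (adjusted p up to 0.112 in limma). On 10 arrays it fell by 0.39 ± 0.08 (limma, adjusted p = 0.00809). In treated cells PAM fell by 0.75 ± 0.14 in low folate on 12 arrays (limma, adjusted p = 0.00195; 8.79e-06 on 10). It was the 1 call of the list there, against 22.3% of all genes on 12 arrays and 27.7% on 10. The list's median was 0.02 against 0.02 for all genes in the first comparison and 0.00 against 0.01 in the second.

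The apelin and endothelin list had 8 measured genes. With pemetrexed in Lo cells 1 of them was called on 12 and on 10 arrays, against 10.7% and 11% of all genes. ECE2, a relative of ECE1, stood at 8.01, 8.08 and 8.10 in Lo controls and at 8.42, 8.34 and 8.34 in Lo pemetrexed cells, and rose by 0.30 ± 0.07 (limma, adjusted p = 0.0129; 0.0551 without Lo pemetrexed 1, and 0.0137 on 10 arrays with a change of 0.32). The 3 arrays of each group did not overlap, as for 29.8% of all genes, and ECE1 was not called in that comparison. In treated cells low folate cells had ECE2 higher by 0.36 ± 0.07 (limma, adjusted p = 0.00284), and FURIN, which cuts the endothelin precursor, fell by 0.51 ± 0.11 (limma, adjusted p = 0.00700). MME, a peptidase that degrades several vasoactive peptides, fell by 0.28 ± 0.09 there (limma, adjusted p = 0.0494), a call lost in 9 of the 12 fits that left out 1 array (adjusted p up to 0.188 in limma). These 3 were called on 10 arrays too, at adjusted p = 0.00125, 0.00328 and 0.0190 in limma. In treated cells 1 gene of the list rose and 2 fell on 12 arrays, where 22.3% of all genes were called. On 10 arrays 2 rose and 2 fell, where 27.7% were called, so the 3 named are not all of its calls there.

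The apelin receptor APLNR gave 0.13 ± 0.08 with pemetrexed in Lo cells (limma, adjusted p = 0.412) and 0.19 in treated low folate cells (limma, adjusted p = 0.132). The endothelin receptor EDNRB gave -0.14 ± 0.14 and -0.23 (limma, adjusted p = 0.631 and 0.301), and EDNRA was not analysed here. Neither receptor was called on 12 or on 10 arrays. APLNR averaged 5.95 over the 12 arrays, below every array median (7.24 to 7.33), so a small change in it may be hard to see here.

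Of 9 nitric oxide and natriuretic peptide genes, PDE5A, the phosphodiesterase that ends cyclic GMP signals, fell by 0.62 ± 0.14 in Lo cells given pemetrexed (limma, adjusted p = 0.0165; up to 0.0746 without Lo control 2 or Lo pemetrexed 1). Of 12 angiotensin, kinin, prostacyclin and urotensin genes, PTGIS, the prostacyclin synthase, fell by 0.79 ± 0.11 (limma, adjusted p = 0.00081), and BDKRB1, the inducible kinin receptor, rose by 0.89 ± 0.17 (limma, adjusted p = 0.00507). BDKRB1 averaged 6.72 ± 0.20 (SD, n = 3) in Lo controls and 7.61 ± 0.32 in Lo pemetrexed cells, and PTGIS 8.12 ± 0.17 and 7.33 ± 0.20. For both genes the 3 arrays of each group did not overlap, as for 29.8% of all genes. In Lo cells given pemetrexed PDE5A was the 1 call among the 9 genes on 12 arrays. Among the 12 genes 1 rose and 1 fell, where 10.7% of all genes were called. On 10 arrays these changes were -0.67 for PDE5A, -0.70 for PTGIS and 0.78 for BDKRB1 (limma, adjusted p = 0.00620, 0.00123 and 0.00423). GUCY1B1, a subunit of the nitric oxide receptor, is named after its values were seen. It was called on 10 arrays and not on 12, at -0.39 ± 0.08 (limma, adjusted p = 0.0065). PDE5A and BDKRB1 each averaged 6.84 over the 12 arrays and GUCY1B1 averaged 6.14, all below every array median (7.24 to 7.33). In treated cells low folate gave PDE5A, PTGIS and BDKRB1 the same directions, at -0.73 ± 0.14, -1.14 ± 0.11 and 1.21 ± 0.17 (limma, adjusted p = 0.00359, 5.32e-05 and 0.000456). All 3 were called on 10 arrays. Of all genes, 22.3% were called there on 12 arrays and 27.7% on 10. On 10 arrays 2 of the 9 genes rose and 2 fell, and 2 of the 12 rose and 1 fell, so other genes of these lists were called too.

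**Figure D3:**
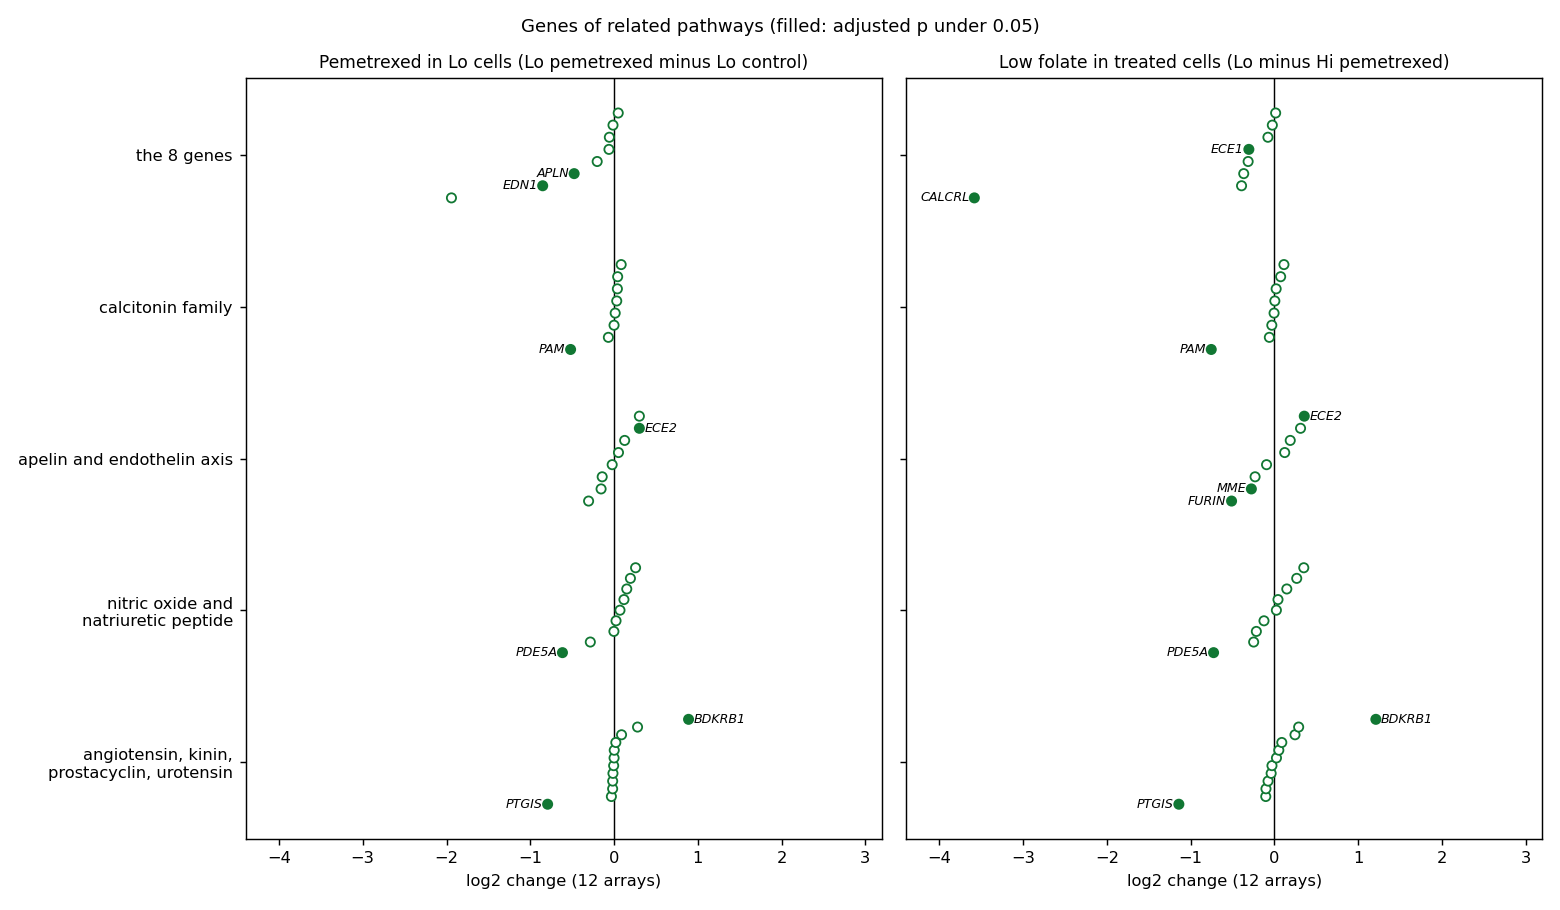
Log2 changes on 12 arrays of the 8 genes and of 4 lists of related genes, each circle 1 gene, for pemetrexed in Lo cells (left) and for low folate in treated cells (right); filled circles had an adjusted p under 0.05 in limma and are named. Most genes of the lists sit near 0, and PAM, PDE5A and PTGIS are filled and lower in both panels while ECE2 and BDKRB1 are filled and higher.

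The levels most like those of each called gene were sought by Pearson correlation over the 12 arrays, which share groups and the 2 arrays that stood apart, so the coefficients describe these arrays only. CALCRL was followed by MMRN1 (r of 0.999 over 12 arrays and 0.999 over 10) and MEIS2 (0.998 and 0.998). EDN1 was followed by LOXL2 (0.982 and 0.983) and PDGFRL (0.943 and 0.949). APLN was followed by SKA3 (0.934 and 0.93) and ACKR4 (0.926 and 0.941). ECE1 was followed by ACVRL1 (0.991 and 0.993) and IGFBP4 (0.986 and 0.988). MMRN1 encodes an endothelial and platelet secreted protein, LOXL2 a lysyl oxidase that crosslinks collagen, and ACVRL1 an endothelial receptor of the TGF-beta family.

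**Figure D4:**
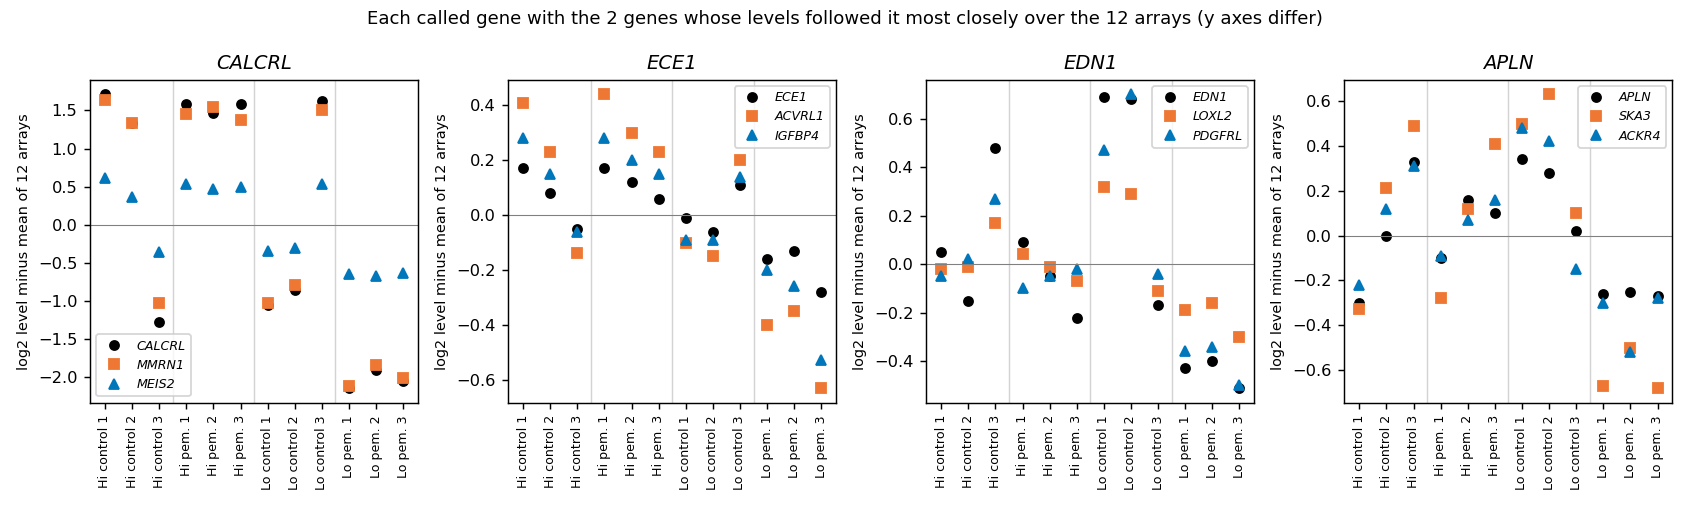
Level of CALCRL, ECE1, EDN1 and APLN on each of the 12 arrays, minus the gene's mean (black circles, log2), with the 2 genes of highest correlation (orange squares and blue triangles); the y axes differ between panels. For CALCRL the high and low arrays of MMRN1 match its own, with a correlation of 0.999 over 12 arrays.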

How the data were processed

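Each deposited value is the log2 expression of a probe set, which the authors computed with RMA in Partek 6.5, per the submitters' processing notes; the settings of RMA are not given in the sources used here. Total RNA had been isolated with a Qiagen kit and biotin-labelled, per the labels' protocols. The table lists 33297 probe sets; 19460 carry a single gene symbol, 1754 carry more than one and 12083 carry none. Only those with 1 symbol were used, and for 769 genes with several the brightest by mean over the 12 arrays was kept, which left 18417 genes with no further normalization and no filter. Of 19460 gene identifiers, 19429 were found among RefSeq genes of GRCh38.p14.

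All genes on the 12 arrays entered 1 linear model with 4 group means in limma 3.58.1 (R 4.3.3), which leaves 8 residual degrees of freedom and uses moderated two-sided tests. Calls needed a Benjamini-Hochberg adjusted p under 0.05, taken separately in each of 5 contrasts. Errors after ± are standard errors. The fits were tested on simulated data. All 8 genes were named whatever their p; of the lists, up to 3 called genes of smallest p per contrast were named, plus the peptide receptors, and the 2 genes of highest correlation with each of the 4 genes called on 12 arrays. The genes, the lists and the set of 10 arrays were chosen with earlier results of these data known, so they are no independent evidence. The p-values rest on the spread of biological replicates from 1 line, and folate contrasts include whatever else separates the Lo culture from the Hi culture. Replicate numbers were not used as pairs: over 12 arrays 11 of 18 same-number pairs correlated above 0.1. Over the 10 arrays all 13 of 13 did (0.115 to 0.543), where a control group of 2 has mirrored deviations; the block by number there changed no call among the 8 genes. Alternatives were other normalization, a dim filter, a block by number, fits on the groups compared and leaving out arrays.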

Additional observations from a re-analysis of the deposited data

Results flagged for a closer look

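The responses of Lo and Hi cells to pemetrexed differed by the interaction test for 3 of the 8 genes on the 10 arrays without Hi control 3 and Lo control 3: CALCRL by -1.11, EDN1 by -1.13 and APLN by -0.78 on the log2 scale (limma, adjusted p = 0.00252, 0.000924 and 0.00902). On all 12 arrays none of these was called. Of all genes, limma called 4.16% in this comparison on 10 arrays and 4.81% on 12.

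Of the related genes, 11 differed in response on 12 arrays: EGR1 by 2.42, ATF3 by 1.35, FOSB by 1.18, FOS by 1.15, BDKRB1 by 1.09, VEGFA by 1.04, NDRG1 by 0.54, JUN by 0.53, KLF4 by 0.52 and JUNB by 0.50 had the higher response in Lo cells, and PTGIS by -1.04 the lower. All 11 had an adjusted p under 0.05 in limma (JUNB 0.0488), and EGR1, JUN, KLF4 and JUNB lie outside the rule for named genes in this comparison. On 10 arrays each of them but NDRG1 was called. Of all genes, 4.81% were called in this comparison on 12 arrays and 4.16% on 10. The AP-1 and EGR list alone, with 9 measured genes, gave 7 of the 11. BDKRB1 lost its call without Hi pemetrexed 2, Hi pemetrexed 3 or Lo control 3 (adjusted p up to 0.0622), and NDRG1 lost it in 6 fits that left out 1 array (up to 0.0694) and on 10 arrays (0.0566).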

How the results depend on the processing

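With pemetrexed in Lo cells, 2 of the 8 genes were called on 12 arrays, 3 without both arrays that stood apart, 1 with quantile normalization (EDN1; APLN had an adjusted p of 0.0680) and 1 with the replicate block (EDN1; APLN 0.0517), and 0 to 3 when 1 array was left out. Low folate in control cells gave 0 on 12 arrays (0 to 0 with 1 array left out), and 4 on the 10 arrays, with or without the replicate block. Low folate in treated cells gave 2 on 12 arrays, 5 on the 10 arrays, with or without the block, and 5 when only the groups compared were fitted, with 1 to 3 when 1 array was left out. The interaction gave 0 on 12 arrays, 3 on the 10 arrays with or without the block, and 0 to 1 when 1 array was left out. On 12 arrays same-number correlations ran from -0.656 to 0.514, the lowest between Hi control 3 and Lo control 3. On the 10 arrays they ran from 0.115 to 0.543. Whether same-number samples share a batch was not tested. On 12 arrays the block changed no other call among the 8 genes.

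Some values that were called neither on 12 arrays nor under the alternative changed sign. Without both arrays, and then with the replicate block as well, RAMP2 in Lo cells became 0.0108 and 0.00796, ADM in Lo cells 0.145 and 0.126, RAMP1 in Hi cells 0.077 and 0.155, RAMP3 in Hi cells 0.0225 and 0.044, RAMP2 in control cells 0.0826 and 0.0826, and the interaction of ADM 0.11 and 0.11; EDN1 in Hi cells became 0.0472 with the block and ECE1 in Hi cells -0.0073 without it. Quantile normalization gave 0.00575 for RAMP2 in control cells and 0.00949 for the interaction of RAMP3. Leaving out 1 array gave, in Lo cells, -0.00761 to 0.1 for RAMP1, -0.0604 to 0.063 for RAMP2 and -0.22 to 0.145 for ADM. In Hi cells it gave -0.118 to 0.077 for RAMP1, -0.0774 to 0.119 for RAMP2, -0.0888 to 0.0225 for RAMP3, -0.111 to 0.206 for APLN and -0.0073 to 0.0992 for ECE1. In control cells it gave -0.122 to 0.0413 for RAMP1, -0.0905 to 0.106 for RAMP2 and -0.111 to 0.000518 for RAMP3, and in treated cells -0.0905 to 0.104 for RAMP1 and -0.0734 to 0.05 for RAMP2. For the interaction it gave -0.0268 to 0.168 for RAMP1, -0.131 to 0.0653 for RAMP2, -0.0783 to 0.033 for RAMP3 and -0.339 to 0.0269 for ADM. The cause of these changes was not tested.

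Over all genes, pemetrexed in Lo cells gave 1978 calls on 12 arrays, 2018 on the 10 arrays and 3385 there with the block. Low folate gave 0, 1320 and 2422 in control cells and 4107, 5106 and 6554 in treated cells, and the interaction gave 886, 767 and 1738, in the same order. With 1 of the 12 arrays left out the counts were 1170 to 2563 in Lo cells, 2855 to 4607 in treated cells and 443 to 956 for the interaction. Arrays give no detection limit here, and with 3 arrays a group small changes of dim genes such as RAMP2 are hard to see.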

Other observations

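Genes outside the peptide lists moved in the same arrays. Of 10 measured HIF target genes, 3 rose with pemetrexed in Lo cells on 12 arrays and none fell (limma), with a median of 0.01 against 0.02 for all genes, of which 10.7% were called: VEGFA, the vascular growth factor, rose by 0.85 ± 0.10, NDRG1 by 0.55 ± 0.09 and the glucose carrier SLC2A1 by 0.75 ± 0.21 (limma, adjusted p = 0.0407 for SLC2A1, lost in 8 of 12 fits that left out 1 array, up to 0.156). On 10 arrays these 3 were called as well, SLC2A1 at 0.53. ADM, which was not in that list, gave -0.06 in the same comparison on 12 arrays and 0.15 on 10, and was called on neither (limma).

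Of 9 transcription factor genes of the AP-1, EGR and Kruppel-like (KLF2 and KLF4) families, 7 rose with pemetrexed in Lo cells on 12 arrays and none fell, with a median of 0.64 against 0.02 for all genes, and 7 rose on 10 arrays. Of all genes, 10.7% were called there on 12 arrays and 11% on 10. FOSB rose by 1.23, ATF3 by 1.10 and KLF4 by 0.64 (limma). In Hi cells none of the 9 was called, with 1 of them at unadjusted p under 0.05 on 12 arrays and 0 on 10. There limma called 0% of all genes on 12 and on 10 arrays, and 1.44% and 1.82% had an unadjusted p under 0.05.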
